A study of Homo sapiens with 12 samples.

Results

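Melanin synthesis and melanosome matrix genes are followed here as a set of 9, picked by gene name from the 61587 genes of the deposited table. They are the enzymes TYR, TYRP1 and DCT, the matrix gene PMEL and the membrane protein gene MLANA. The others are the transporter genes OCA2, SLC45A2 and SLC24A5, and the receptor gene GPR143. RNA-seq was carried out on A2058 cells, an established human line from a cutaneous melanoma. The 12 libraries formed 4 groups of 3: cells given a first siRNA against SOX10 (siSOX10_1), cells given a second one (siSOX10_2), cells given a negative control siRNA (siCNTL), and cells that received no treatment (untreated). The siRNAs were used at 12.5 nM with a lipid reagent and RNA was taken at 96 hours, with 1 library of every group in each of 3 batches. The series title names SOX10 as a regulator of melanoma metastasis, so the question for these genes is how the pigment programme changed when SOX10 was lowered. All groups are the same single line, and the labels do not say whether replicates were separate cultures. The p-values therefore measure only how far these libraries spread, which may be technical.

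Melanin is made inside melanosomes, organelles related to lysosomes, where tyrosinase oxidises tyrosine and the related enzymes act on the intermediates that follow. PMEL forms the fibrils on which the pigment is laid down, and ion and solute carriers in the membrane set the conditions in the lumen. SOX10, a transcription factor of the neural crest, acts upstream of MITF, the factor that binds E-boxes in the promoters of many of these genes in melanocytes.

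Values are TPM, transcript abundances scaled by gene length and to the same total in every library. They keep no read depth, so the depth behind each value is unknown. Between 20396 and 23564 genes were above 0 per library, and 10 everyday genes checked had 0 values at 0. SOX10 checked the labels: it had 12.8, 12.8 and 3.32 TPM in batches 1, 2 and 3 of siSOX10_1 and 11.8, 8.95 and 4.24 TPM in those of siSOX10_2, against 30.005, 28.6 and 36.8 TPM with siCNTL. All 4 pigment cell markers examined were present. None of 4 leukocyte and 4 keratinocyte markers reached 1 TPM in any library, with TP63, KRT5 and DSG3 among those at 0 throughout. The 3 endothelial markers summed to 0.404 to 2.27 TPM with siSOX10_1 and 0.605 to 1.45 TPM with siSOX10_2, compared with 0 to 0.17 TPM with siCNTL, with only PECAM1 reaching 1 TPM. The 3 fibroblast markers, which were mostly LUM, summed to 102 to 153 TPM with siSOX10_1 and 56.2 to 67.9 TPM with siSOX10_2, compared with 174 to 205 TPM with siCNTL. PDGFRB, another of the 3, went the other way, at 0.752 to 1.54 TPM with siSOX10_1 and 1.58 to 2.46 TPM with siSOX10_2, compared with 0.123 to 0.198 TPM with siCNTL. The part of these markers in the results was not tested. The batch 3 libraries stood apart for most of the pigment genes, so results are also given without them. Those fits hold only batches 1 and 2, so 2 libraries per group. Batch 3 was left out with earlier results of these data known, so their p-values are not independent support. In bulk RNA, fewer cells expressing a gene and less RNA per cell cannot be told apart.

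RefSeq promoter windows (GRCh38.p14, 250 bases before to 50 after each listed start) were found for 7 of the 9 genes, in 8 windows. The letters TCATGTG, an E-box form that MITF binds and the core of the M-box, were searched on both strands. They stood in windows of 5 of the 7 genes, and in 2.92% of all 35116 windows of the same length. Of these 5 genes, 4 fell with the SOX10 siRNAs and GPR143 did not pass. MLANA and OCA2, whose windows lack the letters, also fell (log2 changes -3.33 and -1.58 in the mean of both siRNAs). OCA2 reached 1 TPM in its 6 control libraries only, which is how it came to be tested, so its call is no independent support. A link between the letters and the changes was not tested. The windows that hold the letters are shown. Each is printed 5′ to 3′ on the gene's strand, and capitals mark the motif, or CACATGA where it lies on the other strand. Each distance is from the first base of the match to the start.
TYR, chr11:89177625-89177924, plus strand, 105 bases before the start: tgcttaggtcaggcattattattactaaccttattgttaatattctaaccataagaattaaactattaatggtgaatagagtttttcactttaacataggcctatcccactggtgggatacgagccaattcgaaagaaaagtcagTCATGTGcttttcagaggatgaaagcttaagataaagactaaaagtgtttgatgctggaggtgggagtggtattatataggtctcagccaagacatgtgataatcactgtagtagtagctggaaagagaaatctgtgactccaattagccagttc
TYRP1, chr9:12693135-12693434, plus strand, 145 bases before the start: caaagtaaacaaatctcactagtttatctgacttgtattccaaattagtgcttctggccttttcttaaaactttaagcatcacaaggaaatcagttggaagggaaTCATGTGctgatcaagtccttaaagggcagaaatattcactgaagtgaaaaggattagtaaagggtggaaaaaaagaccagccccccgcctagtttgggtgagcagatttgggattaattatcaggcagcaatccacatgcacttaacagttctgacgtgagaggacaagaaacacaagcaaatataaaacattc
DCT, chr13:94479633-94479932, minus strand, one match on each strand, that on the gene strand 135 bases before the start: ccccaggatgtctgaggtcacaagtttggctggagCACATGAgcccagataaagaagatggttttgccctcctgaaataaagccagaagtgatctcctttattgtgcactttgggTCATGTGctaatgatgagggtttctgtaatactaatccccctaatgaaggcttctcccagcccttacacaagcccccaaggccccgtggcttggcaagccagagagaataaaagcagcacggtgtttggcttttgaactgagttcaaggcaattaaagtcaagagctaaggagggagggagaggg
SLC24A5, chr15:48120740-48121039, plus strand, 15 bases before the start: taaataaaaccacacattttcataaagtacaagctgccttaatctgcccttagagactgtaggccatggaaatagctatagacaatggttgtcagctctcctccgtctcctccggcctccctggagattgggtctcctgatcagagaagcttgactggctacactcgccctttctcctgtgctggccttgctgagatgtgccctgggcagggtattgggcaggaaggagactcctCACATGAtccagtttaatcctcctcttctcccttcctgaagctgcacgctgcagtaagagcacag
GPR143, chrX:9765798-9766097, minus strand, 61 and 33 bases before the start: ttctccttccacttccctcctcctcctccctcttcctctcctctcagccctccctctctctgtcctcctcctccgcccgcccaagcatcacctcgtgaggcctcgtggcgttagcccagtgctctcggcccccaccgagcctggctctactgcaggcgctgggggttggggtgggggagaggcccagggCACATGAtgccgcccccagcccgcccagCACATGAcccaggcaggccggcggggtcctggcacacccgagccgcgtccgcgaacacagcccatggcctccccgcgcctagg

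A second DCT window, further upstream, and those of MLANA and OCA2 did not hold these letters. TCACGTG, another E-box form, was in 0 windows of these genes and in 3.71% of all windows. The SOX core forms ACAAAG and ACAATG were found in the OCA2 window and the SLC24A5 window, once each, and in 16.1% and 10.8% of all windows. A match describes letters, not a bound site.

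Of the 9 genes, 7 fell in the mean of both SOX10 siRNAs against siCNTL and 0 rose (limma, Benjamini-Hochberg adjusted p under 0.05 over all 15738 genes tested). Over all those genes 33.1% were called, 20.2% higher and 12.9% lower. The 7 were TYR, TYRP1, DCT, PMEL, MLANA, OCA2 and SLC24A5. With the batch as a block, which pairs the libraries, these 7 and SLC45A2 were lower, and the share of all genes called was not counted. In that fit the limma adjusted p was 0.00381 for TYR, 1.11e-06 for TYRP1, 0.0168 for DCT and 0.00413 for PMEL. It was 0.00122 for MLANA, 6.70e-05 for OCA2 and 4.22e-08 for SLC24A5. The median log2 change over the 9 was -2.76, beside 0.08 over all genes tested. All 9 passed the filter of at least 1 TPM in 3 libraries, OCA2 through its 6 control libraries only, and a gene that enters in that way had to be higher in controls. Log2 fold changes, given ± SE, were computed after adding 1 to each TPM, so changes of low genes come out too small. Where libraries are said not to overlap, the share of all genes that separate in that way was not counted.

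**Figure D1:**
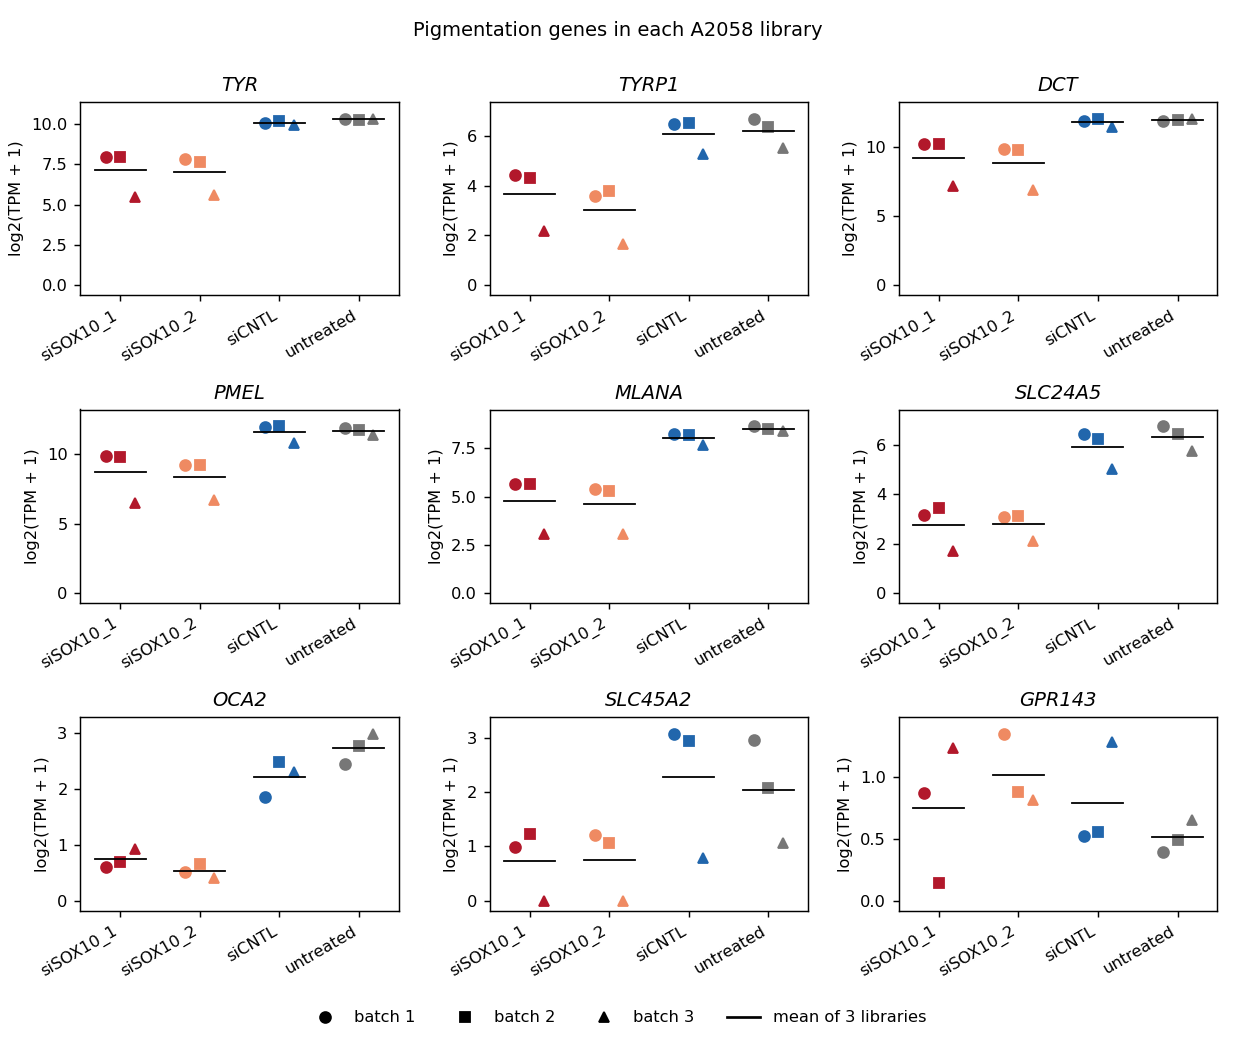
Each panel plots log2(TPM + 1) of 1 pigmentation gene in the 12 libraries by group, with a symbol for each batch and a line at the mean of 3 libraries. The libraries of both SOX10 siRNAs lie below all control libraries for every gene except SLC45A2 and GPR143, and the batch 3 libraries (triangles) of both siRNAs lie below the other SOX10 siRNA libraries in 7 of the panels, all but OCA2 and GPR143. The share of all genes that separate in these ways was not counted.

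TYR (chr11:89177875-89295759, GRCh38), the tyrosinase that catalyses the rate-limiting step of melanin synthesis, had 249, 243 and 44.2 TPM in batches 1, 2 and 3 of siSOX10_1. It had 231, 201 and 48.5 TPM with siSOX10_2, compared with 1091, 1159 and 965 TPM with siCNTL and 1303, 1223 and 1283 TPM in untreated cells. The 2 sets of libraries did not overlap, and the batch 3 libraries of both siRNAs were far lower than the others. The siSOX10_1 and siSOX10_2 means were 16.7% and 14.9% of the siCNTL mean. In the mean of both siRNAs TYR fell by 2.97 ± 0.620 on the log2 scale (limma adjusted p = 0.00521), and by 2.28 without batch 3.

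TYRP1 (chr9:12685439-12710285), a tyrosinase-related protein that stabilises tyrosinase and is needed for brown-black eumelanin, was less abundant. It had 20.5, 18.9 and 3.58 TPM with siSOX10_1 and 10.8, 12.9 and 2.15 TPM with siSOX10_2, compared with 88.0, 89.0 and 37.7 TPM with siCNTL and 102, 79.6 and 44.1 TPM in untreated cells. The batch 3 library was the lowest of each group, controls included, and SOX10 siRNA and control libraries did not overlap. TYRP1 fell by 2.76 ± 0.623 in the mean of both siRNAs (limma adjusted p = 0.00674), and by 2.46 without batch 3. It shares 102 exon bases with LURAP1L-AS1 on the opposite strand, which averaged 1.21 TPM with siCNTL. The labels do not say whether reads were counted by strand, so reads of such overlapping pairs may not be separable.

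DCT (chr13:94436811-94479682), dopachrome tautomerase, which converts dopachrome to the carboxylated indole precursor of eumelanin, was the most abundant of the 9 by mean TPM in each of the 4 groups. It had 1215, 1203 and 144 TPM with siSOX10_1 and 912, 878 and 118 TPM with siSOX10_2, compared with 3749.7, 4144 and 2829.7 TPM with siCNTL and 3881, 3930.2 and 4309.5 TPM in untreated cells. All 6 SOX10 siRNA libraries were below all 6 control libraries, with batch 3 lowest by a wide margin. Its rank by mean TPM among all genes was 153 with siSOX10_1 and 241 with siSOX10_2, against 16 with siCNTL. DCT fell by 2.76 ± 0.810 in the mean of both siRNAs (limma adjusted p = 0.0270). The call ended without siCNTL replicate 1 (adjusted p = 0.0910), 2 (0.0802) or 3 (0.0623) and when untreated libraries were left out of the fit (0.0519). Without batch 3 the fall was 1.92 ± 0.0629 (limma adjusted p = 1.25e-09). That fit rests on the close agreement of batches 1 and 2, so its p-value is not independent support.

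PMEL (chr12:55954105-55973317), the amyloid-forming protein of the melanosome fibrils, had 930.3, 882 and 89.6 TPM with siSOX10_1 and 599, 593 and 103 TPM with siSOX10_2. It had 3963, 4187 and 1825 TPM with siCNTL and 3739, 3431 and 2714 TPM in untreated cells. No SOX10 siRNA library reached the lowest control library, which was siCNTL batch 3. PMEL fell by 3.06 ± 0.827 in the mean of both siRNAs (limma adjusted p = 0.0187). The call ended without siCNTL replicate 1 (adjusted p = 0.0786) or 2 (0.0660). Without batch 3 the fall was 2.47 ± 0.0648 (limma adjusted p = 3.85e-10), again from batches 1 and 2 only and not independent support. PMEL shares 89 exon bases with CDK2 on the opposite strand, a cell cycle kinase gene. CDK2 averaged 144 ± 48.2 TPM with siSOX10_1 and 131 ± 33.5 TPM with siSOX10_2, compared with 452 ± 30.9 TPM with siCNTL (SD, n = 3 each), and the part of shared reads was not tested.

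MLANA (chr9:5890889-5910606), the melanosomal membrane protein MART-1 that associates with PMEL, had 49.1, 48.9 and 7.43 TPM with siSOX10_1 and 41.6, 38.7 and 7.39 TPM with siSOX10_2. It had 297, 291 and 201 TPM with siCNTL and 401, 364 and 341 TPM in untreated cells. The batch 3 libraries of the 2 siRNAs were nearly equal and far below the rest, and no SOX10 siRNA library overlapped the controls. MLANA fell by 3.33 ± 0.665 in the mean of both siRNAs (limma adjusted p = 0.00415), the largest log2 change of the 9 with all batches. Without batch 3 it fell by 2.70, and the change of SLC24A5 (-3.12) was then larger.

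Among the transporters, SLC24A5 (chr15:48120990-48142672), a potassium-dependent sodium-calcium exchanger of pigment cells, had 7.93, 9.91 and 2.22 TPM with siSOX10_1 and 7.55, 7.63 and 3.34 TPM with siSOX10_2. It had 84.5, 74.3 and 31.9 TPM with siCNTL and 107, 86.8 and 53.5 TPM in untreated cells. The groups did not overlap and the batch 3 library was the lowest of each group. The siSOX10_1 and siSOX10_2 means were 10.5% and 9.71% of the siCNTL mean, the smallest shares among the 9 genes. SLC24A5 fell by 3.13 ± 0.434 in the mean of both siRNAs (limma adjusted p = 0.000233), and by 3.12 without batch 3. It shares 1574 exon bases with MYEF2 on the opposite strand, which averaged 9.07 ± 0.637 TPM with siSOX10_1 and 13.2 ± 2.83 TPM with siSOX10_2, compared with 13.1 ± 3.52 TPM with siCNTL (SD, n = 3 each).

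OCA2 (chr15:27754875-28099315), a melanosomal anion channel or transporter mutated in oculocutaneous albinism, was low throughout. It had 0.519, 0.62 and 0.903 TPM with siSOX10_1 and 0.426, 0.579 and 0.329 TPM with siSOX10_2, compared with 2.61, 4.59 and 3.92 TPM with siCNTL and 4.43, 5.80 and 6.94 TPM in untreated cells. The groups did not overlap, and batch 3 was not lowest in siSOX10_1, siCNTL or untreated cells. OCA2 fell by 1.58 ± 0.214 in the mean of both siRNAs (limma adjusted p = 0.000116). It passed the filter through its 6 control libraries only, which favours this direction and a gap between the groups. Its call, and its place in each count of lower genes, is therefore no independent support.

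SLC45A2 (chr5:33944623-33984693), a melanosomal carrier linked to pH and sugar transport, had 0.976 and 1.35 TPM in batches 1 and 2 of siSOX10_1 and 1.33 and 1.08 TPM in those of siSOX10_2, and was listed at 0 in batch 3 of both. It had 7.45, 6.74 and 0.735 TPM with siCNTL and 6.79, 3.23 and 1.09 TPM in untreated cells. The groups overlapped through the batch 3 controls. The log2 change of -1.53 ± 0.552 in the mean of both siRNAs did not pass (limma adjusted p = 0.0507). It passed with the batch as a block (0.000599), without batch 3 (-1.89, 0.000215), without siCNTL replicate 3 (-2.27, 0.00437) and without untreated replicate 1 (0.0448) or 3 (0.0425).

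GPR143 (chrX:9725346-9786297), a melanosomal G protein-coupled receptor mutated in ocular albinism, was low in every library. It had 0.828, 0.103 and 1.35 TPM with siSOX10_1 and 1.55, 0.836 and 0.763 TPM with siSOX10_2, compared with 0.434, 0.470 and 1.43 TPM with siCNTL and 0.312, 0.405 and 0.571 TPM in untreated cells. The groups overlapped, and only 3 of the 12 libraries reached 1 TPM. Its log2 change of 0.10 ± 0.279 did not pass (limma adjusted p = 0.833). The span of GPR143 overlaps that of TBL1X on the opposite strand, with 0 shared exon bases in GENCODE. TBL1X averaged 14.96 and 18.4 TPM with siSOX10_1 and siSOX10_2, against 4.26 TPM with siCNTL.

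Taken one siRNA at a time against the same siCNTL libraries, siSOX10_1 had 5 of the 9 genes lower, where 27.3% of all genes were called, 15.6% higher and 11.7% lower. TYR, TYRP1, MLANA, OCA2 and SLC24A5 fell. PMEL (-2.89, limma adjusted p = 0.0509) and DCT (-2.56, 0.0720) did not pass with siSOX10_1. With the batch as a block, 8 of the 9 passed, all but GPR143, with PMEL at 0.0117, DCT at 0.0425 and SLC45A2 at 0.00198. The same 8 passed without batch 3, where GPR143 was not tested. The share of all genes called was not counted for the block fit or without batch 3. PMEL also passed without siSOX10_2 replicate 3 (0.0376), as did DCT (0.0357), and SLC45A2 without siCNTL replicate 3 (-2.28, 0.00966). The TYRP1 call (-2.44, 0.0304) was lost without siSOX10_1 replicate 3 (0.0894) or siCNTL replicate 1 (0.0890) or 2 (0.0841).

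With siSOX10_2, 7 of the 9 were lower, where 28.8% of all genes were called, 18.4% higher and 10.4% lower. They were the same 7 genes as in the mean of both siRNAs. Their log2 changes ranged from -1.68 for OCA2 to -3.43 for MLANA. DCT (-2.95, limma adjusted p = 0.0414) did not hold in 9 of the 12 fits that left out 1 library, and its adjusted p was highest, at 0.130, without siSOX10_2 replicate 3. Leaving out siSOX10_1 replicate 1 or 2, any siCNTL library or any untreated library also ended it, with adjusted p of 0.0532 to 0.110. PMEL (-3.22, 0.0314) lost its call without siSOX10_2 replicate 3 (0.112) or siCNTL replicate 1 (0.0996) or 2 (0.0854). SLC45A2 (-1.52, 0.0968) passed with the batch as a block (0.00203), without batch 3 (0.000792) and without siCNTL replicate 3 (-2.26, 0.00978).

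**Figure D2:**
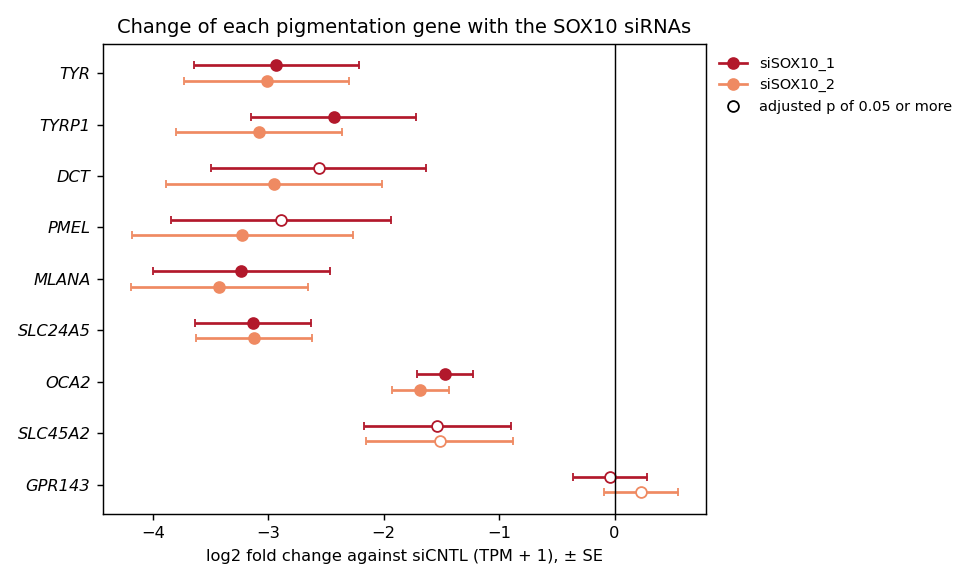
Log2 fold changes of the 9 pigmentation genes with siSOX10_1 and siSOX10_2 against siCNTL, on the log2(TPM + 1) scale, with bars of ± 1 SE from limma and open symbols where the adjusted p was 0.05 or more. The 2 siRNAs lie within 1 SE bar of each other for every gene, from about the same point for SLC24A5 (-3.13 and -3.12) to -2.44 and -3.08 for TYRP1, and GPR143 lies near 0 (-0.04 and 0.23).

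Set directly against each other, siSOX10_2 and siSOX10_1 differed at 0 of the 9 genes, where 1.56% of all genes were called, 1.07% higher and 0.489% lower. The log2 differences ranged from -0.64 ± 0.719 for TYRP1 to 0.27 ± 0.322 for GPR143. None of the 9 had an unadjusted p under 0.05, and limma without trend and robust options also called 0 of them. With SE of up to 0.955, for PMEL, these values do not show that the siRNAs act alike. Without batch 3, where the libraries of each group lay closer together, 3 genes were lower with siSOX10_2: PMEL (-0.60, limma adjusted p = 0.00224), DCT (-0.43, 0.0105) and TYRP1 (-0.69, 0.0369). The share of all genes called without batch 3 was not counted. In batches 1 and 2 PMEL had 599 and 593 TPM with siSOX10_2, compared with 930.3 and 882 TPM with siSOX10_1. In batch 3 PMEL went the other way, at 103 TPM with siSOX10_2 against 89.6 TPM with siSOX10_1. DCT (118 against 144 TPM) and TYRP1 (2.15 against 3.58 TPM) were lower with siSOX10_2 in batch 3 too.

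The siCNTL and untreated libraries differed at 0 of the 9 genes and at 0% of all genes tested. Over all genes, 581 had an unadjusted p under 0.05, and limma without trend and robust options called 0. The largest log2 differences among the 9 were -0.52 ± 0.247 for OCA2 and -0.51 ± 0.768 for MLANA. For TYR, MLANA, OCA2 and SLC24A5 the siCNTL library was below the untreated library in each of the 3 batches, and for GPR143 it was above it in each. MLANA, for example, had 297, 291 and 201 TPM with siCNTL and 401, 364 and 341 TPM in untreated cells.

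By abundance in siCNTL cells the order was DCT (3574 ± 674 TPM), PMEL (3325 ± 1304), TYR (1072 ± 98.4), MLANA (263 ± 54.3), TYRP1 (71.6 ± 29.3), SLC24A5 (63.6 ± 27.9), SLC45A2 (4.97 ± 3.69), OCA2 (3.71 ± 1.01) and GPR143 (0.779 ± 0.566 TPM, SD, n = 3 each). The ranges of DCT and PMEL, of TYRP1 and SLC24A5, and of SLC45A2 and OCA2 overlapped, and these neighbours were not tested against each other. Within each siCNTL library TYRP1 was above SLC24A5, while the order of the other pairs changed between batches. By group means the order of the first 6 was the same with both SOX10 siRNAs, and in untreated cells TYRP1 and SLC24A5 changed places. In batch 3 of siSOX10_2, however, SLC24A5 (3.34 TPM) was above TYRP1 (2.15 TPM). SLC24A5 was above TYRP1 in each untreated library, though the ranges of these genes overlapped there too.

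Together the 9 genes summed to 2474, 2408 and 293 TPM in batches 1, 2 and 3 of siSOX10_1 and 1805, 1734 and 283 TPM in those of siSOX10_2, against 9284, 9956 and 5896 TPM with siCNTL. As a share of all TPM this was 0.0293% to 0.247% with siSOX10_1 and 0.0283% to 0.181% with siSOX10_2, against 0.590% to 0.996% with siCNTL. PMEL and DCT made up 77.9% to 86.7% of the sum in each library, so the sum mostly follows those 2 genes. The TPM ratio of PMEL over DCT was 0.766, 0.733 and 0.622 in batches 1, 2 and 3 of siSOX10_1 and 0.657, 0.675 and 0.876 in those of siSOX10_2, against 1.06, 1.01 and 0.645 with siCNTL. Within batches the ratio was below siCNTL in all 3 with siSOX10_1, and in batches 1 and 2 but not 3 with siSOX10_2. The difference was not tested.

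The pigment genes also differed between batches. That batch 3 stands apart was known from earlier results of these data when its comparisons were chosen. Across all groups, batch 3 was lower than batches 1 and 2 for 3 of the 9 genes, where 10.7% of all genes were called, 1.49% higher and 9.17% lower. They were TYRP1 (-1.61 ± 0.178, limma adjusted p = 0.000710), SLC45A2 (-1.48 ± 0.227, 0.00360) and SLC24A5 (-1.18 ± 0.139, 0.000836). All 3 also ran low in the batch 3 controls: TYRP1 was at 42.6% of the mean of batches 1 and 2 with siCNTL and at 48.5% in untreated cells, SLC24A5 at 40.2% and 55.2%, and SLC45A2 at 10.4% and 21.8%. In the same libraries SOX10 was at 126% with siCNTL and 134% in untreated cells, and MITF at 139% and 120%. Without untreated replicate 3, 6 genes were lower, with DCT (-2.15, 0.0473), PMEL (-2.33, 0.0159) and MLANA (-1.80, 0.0204) added. For that fit the share of all genes called was not counted.

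The SOX10 siRNA effect itself was larger in batch 3 than in batches 1 and 2 for 4 of the 9 genes, DCT, TYR, MLANA and PMEL, where 2.28% of all genes were called, 0.858% higher and 1.42% lower. The difference of the effects was -2.51 ± 0.111 for DCT (limma adjusted p = 2.21e-06), -2.07 ± 0.137 for TYR (2.93e-05), -1.88 ± 0.155 for MLANA (0.000156) and -1.76 ± 0.115 for PMEL (2.80e-05), on the log2 scale. Batch 3 has 1 library per group, so this fit has 4 residual degrees of freedom and takes its spread from the agreement of batches 1 and 2. Because batch 3 was already known to stand apart, its p-values are not independent support. The 4 calls held in every fit that could be made, while over all genes there were 359 calls, and 50 without trend and robust options.

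The levels left show the same pattern. DCT was at 21.2% to 32.4% of the siCNTL library of its batch in batches 1 and 2, over both siRNAs, and at 4.16% to 5.10% in batch 3. TYR was at 17.3% to 22.8% in batches 1 and 2 and 4.58% to 5.03% in batch 3. MLANA was at 13.3% to 16.8% and, in batch 3, at 3.69% to 3.70%. For SLC24A5, by contrast, the 2 ranges overlapped, at 8.93% to 13.3% in batches 1 and 2 and 6.96% to 10.5% in batch 3. The difference of its effects was -0.01 ± 0.257 (limma adjusted p = 0.989). Both values depend on the siCNTL library of batch 3, which was itself low for SLC24A5, at 40.2% of the mean of batches 1 and 2. With untreated cells as the control the difference for SLC24A5 was -0.46, which did not pass. TYRP1 lay between, at 12.3% to 23.3% and 5.69% to 9.49%, with a difference of -0.89 ± 0.244 that did not pass (adjusted p = 0.0943). It passed with untreated cells as the control (-1.08, 0.0356) and with a pseudocount of 0.1 (-1.19, 0.0383).

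**Figure D3:**
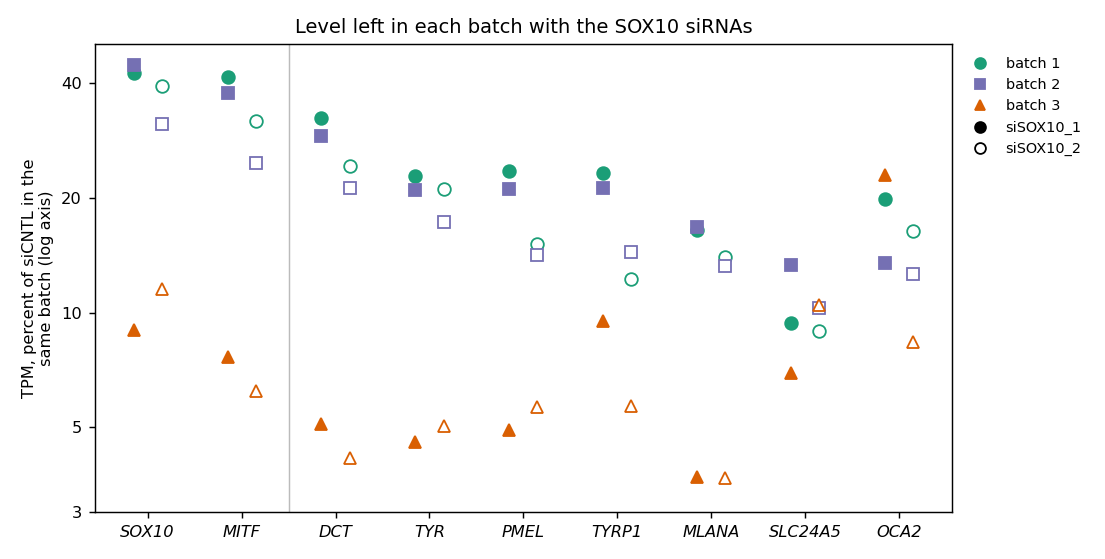
TPM left with each SOX10 siRNA as a percentage of the siCNTL library of the same batch (log axis), for SOX10, MITF and 7 pigmentation genes, with colour and shape for the batch and filled or open symbols for the siRNA. The batch 3 points (triangles) lie apart and below for SOX10, MITF, DCT, TYR, PMEL, TYRP1 and MLANA, and overlap the range of the other batches for SLC24A5. For OCA2 one batch 3 point lies above that range and one below it. SLC45A2, listed at 0 in batch 3, and GPR143 are not drawn.

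SOX10 and MITF were lower in the batch 3 siRNA libraries too. SOX10 was at 31.3% to 44.8% of siCNTL in batches 1 and 2 and at 9.03% to 11.5% in batch 3. MITF was at 24.8% to 41.4% in batches 1 and 2 and at 6.24% to 7.66% in batch 3. In batches 1 and 2 the pigment genes other than GPR143 were each left at a smaller percentage than both SOX10 and MITF in all 4 libraries. In batch 3 that held in both siRNA libraries for TYR, DCT, PMEL and MLANA, and for SLC45A2, which was listed at 0, while OCA2 was above MITF in both, at 23.0% with siSOX10_1 and 8.38% with siSOX10_2. These percentages are a description of single libraries, with no test of one gene against another.

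By the root mean square difference of log2 values over the 12 libraries, the genes whose pattern was most like the median of the 9 included SLC18A1 (0.116), ST6GALNAC3 (0.244), SERPINF1 (0.255), C1QTNF3 (0.255), LHFPL3-AS1 (0.255), ST3GAL6 (0.288) and EGFL8 (0.310). The measure was taken over 10284 genes averaging at least 5 TPM, with a median of 2.16. SLC18A1, a vesicular monoamine transporter, averaged 7.01 ± 5.06 and 5.23 ± 3.85 TPM with the 2 SOX10 siRNAs, against 35.6 ± 7.08 TPM with siCNTL (SD, n = 3 each). Since the median pattern holds the batch 3 drop, these genes carry it as well.

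For the other genes of the pathway, the counts are of members tested in the mean of both siRNAs against siCNTL, where 20.2% of all genes were higher and 12.9% lower and the median log2 change was 0.08.

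Of 13 transcription factors of pigment cells, 5 fell and 6 rose (median 0.35). MITF fell by 2.32 ± 0.479 (limma adjusted p = 0.00450), SOX10 changed by -1.85 and IRF4, a partner of MITF at the TYR promoter, by -1.78. SOX5 (-1.24) and LEF1 (-1.02) also fell. TFE3, the paralog of MITF that drives lysosomal genes, averaged 21.7 ± 1.26 TPM with siSOX10_1 and 16.7 ± 2.90 TPM with siSOX10_2, compared with 5.16 ± 1.74 TPM with siCNTL (log2 change 1.73, adjusted p = 1.88e-05). TFAP2A rose by 1.57. ZEB2, TFEB, PAX3 and CREB1 had smaller rises of 0.35 to 0.90. With untreated cells as the control PAX3 was at 0.11 (adjusted p = 0.545) and ZEB2 at 0.36 (0.354), and without batch 3 ZEB2 was at 0.36 (0.207). Quantile scaling also ended the PAX3, ZEB2 and CREB1 calls, and median-of-ratios scaling those of PAX3 and CREB1. The ZEB2 call ended without siCNTL replicate 3 (adjusted p = 0.140), and the TFEB call without siCNTL replicate 1 or 2 (up to 0.0655). The PAX3 call ended without siCNTL replicate 1 or 3 (up to 0.0949) and the CREB1 call in 5 of the 12 fits without 1 library (up to 0.169). With siSOX10_2 alone, PAX3 (0.12, limma adjusted p = 0.596) and ZEB2 (0.78, 0.0894) did not pass. With siSOX10_1 alone, TFEB (0.42, limma adjusted p = 0.195) and CREB1 (0.19, 0.338) did not pass.

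Of 4 tested receptors and ligands, EDNRB and MC1R fell and none rose (median -0.53). EDNRB, the endothelin receptor of melanoblasts, averaged 141 ± 6.42 TPM with siSOX10_1 and 94.5 ± 5.83 TPM with siSOX10_2, compared with 253 ± 16.6 TPM with siCNTL (log2 change -1.12, limma adjusted p = 4.69e-07). MC1R, the melanocortin receptor that raises cyclic AMP, averaged 5.76 ± 2.52 and 5.97 ± 1.56 TPM with the 2 siRNAs, against 11.5 ± 0.301 TPM with siCNTL. The other 6 genes of the list, KIT among them, were too low to be tested.

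Of 11 genes that process or sort PMEL, 4 fell and 4 rose (median 0.16). Those that fell were GPNMB, the paralog of PMEL (-1.84, limma adjusted p = 0.00447), APOE (-1.88, 0.0449), the tetraspanin CD63 that sorts the PMEL luminal domain (-1.09, 1.90e-07) and BACE2, the sheddase that releases the amyloidogenic fragment (-0.58, 0.000464). The APOE call ended in 10 of the 12 fits that left out 1 library (adjusted p up to 0.147). Those that rose were ADAM17 (0.83), the gamma-secretase subunit NCSTN (0.61), the proprotein convertase FURIN (0.61) and ADAM10 (0.52). The FURIN and ADAM10 calls were lost without siCNTL replicate 1 (adjusted p = 0.117 and 0.102), and FURIN also without siCNTL replicate 2. Median-of-ratios scaling ended both calls (0.0623 for FURIN and 0.0768 for ADAM10), and quantile scaling that of FURIN (0.0777).

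Of 27 genes that deliver cargo to the forming melanosome, 9 fell and 2 rose (median -0.07). The 2 small GTPases that carry TYR and TYRP1 to melanosomes fell most. RAB38 averaged 93.7 ± 38.5 TPM with siSOX10_1 and 78.0 ± 26.2 TPM with siSOX10_2, compared with 470 ± 55.5 TPM with siCNTL (-2.52, limma adjusted p = 7.26e-05). RAB32 averaged 105 ± 23.0 and 125 ± 7.52 TPM with the 2 siRNAs, against 457 ± 55.7 TPM with siCNTL (-1.99, 2.53e-07). DTNBP1, the dysbindin subunit of BLOC-1, fell by 1.08, while the 4 tested subunits of the AP-3 adaptor did not pass. VAMP7 (0.47) and HPS3 (0.33) rose, and both calls were lost without siCNTL replicate 1 (adjusted p = 0.0753 and 0.0852), with HPS3 also lost without replicate 2 and VAMP7 without replicate 3. With untreated cells as the control VAMP7 was at 0.21 (adjusted p = 0.279) and HPS3 at 0.25 (0.0690), and both calls also ended with median-of-ratios and with quantile scaling. VAMP7 did not pass without batch 3 either (0.38, 0.0659).

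Of 13 carriers of ions, copper and cystine, 8 fell and 0 rose (median -0.77). TRPM1, a cation channel of melanocytes, fell by 3.50 ± 0.586 (limma adjusted p = 0.00139). ATOX1, the copper chaperone that supplies ATP7A, averaged 1723 ± 639 TPM with siSOX10_1 and 1687 ± 423 TPM with siSOX10_2, compared with 5939 ± 522 TPM with siCNTL (-1.85, 0.000150). OSTM1, the partner of the chloride exchanger CLCN7, fell (-1.80), as did CLCN7 itself (-1.04). The cystine transporter gene SLC7A11 had a change of 0.97 that did not pass (adjusted p = 0.0593), and ATP7A, which loads copper onto tyrosinase, one of -0.50 (0.0968).

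Of 8 genes of melanosome movement, 4 fell and 2 rose (median -0.45). RAB27A and MYO5A, which together tether melanosomes to actin, had log2 changes of -1.38 (limma adjusted p = 1.32e-06) and -1.14, MREG one of -1.82 and RAB17 one of -1.31. RAB11B rose by 0.90 and SYTL2 by 0.77. MLPH, the linker between RAB27A and MYO5A, had a change of 0.89 that did not pass (adjusted p = 0.0866).

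Of 7 genes of tyrosine supply and related enzymes, 6 fell and 0 rose (median -0.92). QDPR, which regenerates the tetrahydrobiopterin cofactor of tyrosine synthesis, averaged 115 ± 37.9 TPM with siSOX10_1 and 101 ± 30.2 TPM with siSOX10_2, compared with 480 ± 51.9 TPM with siCNTL (-2.20, limma adjusted p = 1.58e-05). SLC7A5 and SLC3A2, the 2 chains of a large neutral amino acid transporter, had log2 changes of -1.77 and -1.63. GCH1 (-0.92), MIF (-0.49) and DDT (-0.41) also fell. TH, the tyrosine hydroxylase gene, was too low to be tested.

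**Figure D4:**
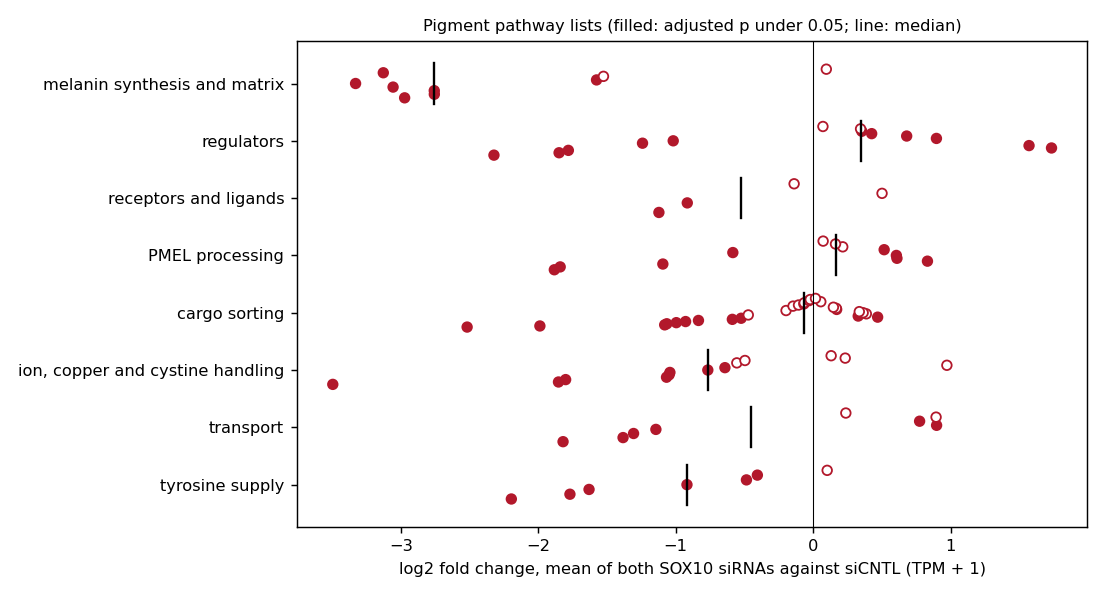
Log2 fold changes in the mean of both SOX10 siRNAs against siCNTL for the 9 pigmentation genes and 7 lists of pathway genes, with filled points for a limma adjusted p under 0.05 and a line at each list's median. The 9 genes had 7 members below 0 with a call and a median of -2.76, while the transcription factor, PMEL processing, cargo sorting and transport lists had called members on both sides of 0.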

How the data were processed

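Per the labels' protocols, A2058 RNA was amplified as full-length cDNA with a low-input kit and tagmented by a transposase. Tools named, per the submitters' processing notes, are DRAGEN and bcl2fastq. Not given in the sources used here are genome build, annotation and strand use. The 1 table deposited by the authors holds TPM of 61587 genes, and its columns were matched to samples by the library names in the labels. Of its gene identifiers 94.8% were in GENCODE v29 (GRCh38), 99.9% of them overlapping the same place. Each library sums to 1000000 TPM, so depth is unknown, and a rise in abundant genes lowers the others.

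Values were taken as log2(TPM + 1) of the authors' deposited TPM for the 15738 genes that reached 1 TPM in 3 or more libraries, and fitted with limma 3.58.1 (R 4.3.3; group means of all 12 libraries, trend and robust empirical Bayes, Benjamini-Hochberg threshold 0.05). The batch comparison added the batch to the groups, and the batch 3 effect used group by batch means. Both comparisons of batch 3, and the fits without it, were chosen with earlier results of these data known. The fit was tested on data simulated with independent noise and no differences between batches. Such data lack the batch 3 pattern seen here, so that test does not show how the p-values behave with it. Without counts in the table, no count test was possible. The labels give the replicate number as a batch, which pairs the libraries, and the fits of groups above hold no batch term, so the paired fit is the one with the batch as a block. Deviations from group means had a median correlation of 0.179 within batches (18 pairs) and of -0.0974 between batches (36 pairs).

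The 9 genes and the lists were chosen with earlier results of these data known. Named are the 9 genes, SOX10, MITF, up to 3 called genes per list with the largest change (all where 5 or fewer were called in a direction), and the 8 genes with the most similar pattern. A few genes named by these rules are not reported here. Other list genes, and the genes that overlap members, were chosen after their values were seen. Alternatives were the batch as a block, each library left out, only the compared groups, no filter or one at 5 TPM, a pseudocount of 0.1 or 5, scaling by median-of-ratios or quantiles, no trend and robust options, an adjusted p under 0.01, a fold of at least 2, untreated cells as the control, and no batch 3. Promoter windows are from RefSeq, and PMEL and SLC45A2 had no entry.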

Additional observations from a re-analysis of the deposited data

Results flagged for a closer look

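For 4 of the genes the effect of the SOX10 siRNAs against siCNTL differed between batches by a test of the difference itself (limma, batch 3 minus batches 1 and 2, log2 scale). Batch 3 was singled out with earlier results of these data known, so the test is not independent support. The difference was -2.07 for TYR, -2.51 for DCT, -1.76 for PMEL and -1.88 for MLANA. Each had a smaller level left in both batch 3 SOX10 siRNA libraries than in the 4 of batches 1 and 2. SOX10 was lower in the same libraries, at 3.32 and 4.24 TPM in batch 3 against 8.95 to 12.8 TPM in batches 1 and 2, and its part in the difference was not tested. The siCNTL arm of batch 3 is 1 library, in which PMEL was at 44.8% and TYR at 85.8% of the mean of batches 1 and 2. With untreated cells as the control, the 4 genes kept a limma adjusted p under 0.05.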

How the results depend on the processing

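In the mean of both siRNAs 5 to 8 of the 9 genes were lower under the alternatives, and 5 to 8 without 1 library, with 0 higher throughout. With siSOX10_1 the 5 lower genes became 8 with the batch as a block, 8 without batch 3 and 2 at an adjusted p under 0.01. With siSOX10_2 the 7 became 4 at an adjusted p under 0.01. Between the siRNAs the 0 lower genes became 3 without batch 3. For most alternatives the share of all genes called was not counted, so these counts have no background beside them. Leaving out 1 library gave 3 to 6 genes lower in batch 3, with 6 without untreated replicate 3. The batch as a block changed no other call of the 9 genes than those given above for SLC45A2, PMEL and DCT. PMEL, at an adjusted p of 0.0509 with siSOX10_1 and in the batch comparison, passed under 4 and 5 alternative settings, block and left-out samples apart. The cause was not tested in any of these.

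Changes of sign were limited to values that did not pass. GPR143 in the mean of both siRNAs was at -0.011 with quantile scaling and -0.037 to 0.25 without 1 library. With siSOX10_1 GPR143 was at 0.24 against untreated cells and -0.17 to 0.27 without 1 library. In the batch 3 minus batches 1 and 2 difference of effects, SLC45A2 was at -0.57 with a pseudocount of 0.1. For SLC24A5 that difference was 0.42 with a pseudocount of 5, 0.065 with median-of-ratios scaling, 0.19 with quantile scaling and -0.11 to 0.078 without 1 library. For OCA2 it was 0.15 with quantile scaling and -0.40 to 0.24 without 1 library, and for GPR143 0.0063 against untreated cells. That fit could not be made without a batch 3 library of siSOX10_1, siSOX10_2 or siCNTL. It called 359 genes in all, against 50 without trend and robust options.

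Scaling moved the median of all genes: for siSOX10_2 it was 0.12 as deposited and 0.0038 with median-of-ratios, and for batch 3 and for the difference of effects -0.11 and 0.02 and -0.11 and -0.01. In the lists the count of higher genes depended on the setting. Transcription factors had 2 to 6 higher, PMEL processing 0 to 4, cargo sorting 0 to 3, ion carriers 0 to 2 and transport 0 to 4. The lower counts of cargo sorting and of tyrosine supply went down to 4 and 3 at a fold of at least 2. HPS4, VPS18 and MCOLN1, which are counted as lower, lost their calls in 9, 8 and 2 fits without 1 library. Depth is unknown, so no limit can be set for genes listed at 0.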
